A study of Oryza sativa with 12 samples.

Results

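WRKY transcription factors of rice were followed in the abscission zone, the layer between pedicel and spikelet where the ripe grain separates. The family was represented by 43 gene IDs, taken from a list of rice OsWRKY loci and matched to the first column of both expression tables. All 43 were among the 55986 IDs of the table on ossh1, and 30 of them were among the 11688 distinct IDs of the table on oscct. Tissue was collected on the day of flowering from oscct mutants and their wild type CK, and from ossh1 mutants and their wild type WT, with 3 libraries per group and 5 plants pooled in each library. Neither the mutant alleles nor the background lines are described in the labels. The series title names OsCCT22, OsSh1 and OsCAD2, and places them in one module that promotes shattering by holding back lignin synthesis.

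WRKY proteins are plant transcription factors named after a conserved amino acid motif that is followed by a zinc finger. They bind W-box elements, whose core is TTGAC, and many WRKY genes carry such elements in their own promoters, so that members regulate each other as activators or repressors. The family is best known for responses to pathogens, to salicylic and jasmonic acid and to wounding, and for leaf senescence. The IDs were not paired with individual gene names in the sources used here, so members are given by ID and no separate role is attached to any of them.

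The ossh1 libraries held 27044341 to 28600944 counts and the WT libraries 30382846 to 32055561. The oscct table covers part of each library, with sums of 12514979 to 12801449 for oscct and 12933887 to 13308814 for CK, and the depth behind it is unknown. Field plots lay at 2 sites, which the labels do not tie to samples, so site, line background and mutation cannot be told apart in either comparison. The targeted genes and markers of tissue identity were not analysed here, because the sources used here do not pair IDs with their names. In whole tissue, fewer cells of a type and less RNA per cell cannot be told apart. Reads shared by near-identical family members could have been divided among them by the counting, which would blur differences between such copies.

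In ossh1 the WRKY family moved in both directions. Of the 41 members with enough counts to be tested, 18 were higher in ossh1 than in WT, 16 were lower and 7 did not pass an adjusted p of 0.05 (edgeR's quasi-likelihood test, Benjamini-Hochberg adjustment over all tested IDs). Together 82.9% of the tested members passed, against 58.3% of all 22669 tested IDs. The share higher was 43.9% of members against 29.2% of all IDs, and the share lower was 39% against 29.1%. The median log2 fold change of the members was -0.01, the same as that of all tested IDs after rounding, while their median absolute log2 fold change was 0.54 against 0.33. At least 2-fold higher were 8 members (19.5%, against 7.98% of all IDs) and at least 2-fold lower were 4 (9.76%, against 4.96%), together 29.3% of members against 12.9% of all IDs. The 3 libraries of ossh1 and the 3 of WT did not overlap for 33 members (80.5%, against 62.3% of all IDs). Fitted variation between replicates was lower for members than for all IDs (median 4.54% against 6.38%). Its part in these shares was not tested.

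**Figure D1:**
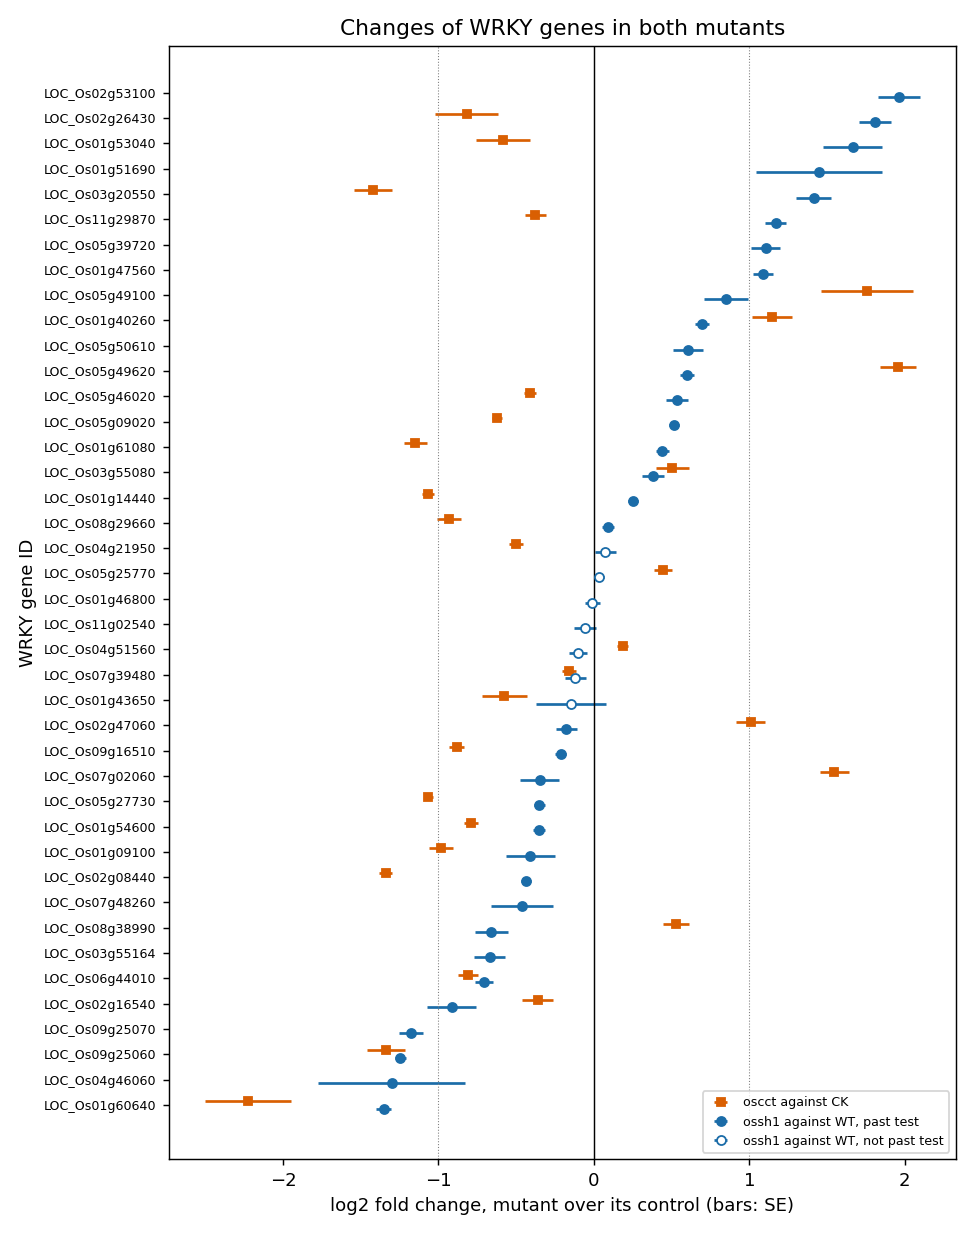
Log2 fold change of each tested WRKY gene, ossh1 over WT (blue circles, open where the test was not passed) and oscct over CK (orange squares, drawn where the ID is listed), with SE bars and dotted lines at 2-fold. Genes run from the largest rise in ossh1 (1.96, top) to the largest fall (-1.35, bottom), and the orange squares lie mostly left of 0, for 21 of 30 genes.

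The largest fall in ossh1 was that of LOC_Os01g60640 on chromosome 1. It had 36.4, 33.4 and 33.8 CPM (read counts per 1000000 after TMM scaling) in ossh1, against 83.4, 93.3 and 88.1 CPM in WT. Every ossh1 library was far below every WT library, which came to -1.35 on the log2 scale (SE 0.05, adjusted p = 3.71e-25, edgeR), a 2.55-fold lower level. This placed the gene at the 2.58th percentile of changes over all tested IDs.

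A pair of neighbours on chromosome 9 fell by nearly the same factor. LOC_Os09g25060 had 167, 157 and 152 CPM in ossh1, against 359, 384 and 386 CPM in WT, a log2 change of -1.24 (SE 0.04, adjusted p = 1.08e-29, edgeR). LOC_Os09g25070, the next ID in the table, had 15.5, 13.8 and 17.7 CPM in ossh1, against 37.4, 36.4 and 32.3 CPM in WT, a log2 change of -1.18 (SE 0.08, adjusted p = 4.83e-17, edgeR). In both genes every ossh1 library lay below every WT library. Around the pair, of the 10 nearest tested IDs on each side, 8 were higher in ossh1, 4 were lower and 0 were lower by at least 2-fold, with a median log2 fold change of -0.01.

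LOC_Os04g46060 made up the fourth fall of at least 2-fold, but on few reads. It had 4, 8 and 8 counts in ossh1, against 25, 18 and 17 counts in WT, with a log2 change of -1.30 (SE 0.47, adjusted p = 0.0171, edgeR). The call was lost without WT replicate 1 (adjusted p = 0.0895) and without ossh1 replicate 1 (adjusted p = 0.0942).

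Among the rises, LOC_Os02g53100 changed most, at the 97.4th percentile of all tested IDs. It had 9.79, 9.88 and 10.7 CPM in ossh1, against 2.56, 2.61 and 2.60 CPM in WT, a log2 change of 1.96 (SE 0.13, adjusted p = 1.7e-16, edgeR) or 3.90-fold. LOC_Os02g26430 followed with 18.5, 19.6 and 15.8 CPM in ossh1, against 4.72, 5.58 and 5.08 CPM in WT, a log2 fold change of 1.81 (SE 0.11). Both genes lie on chromosome 2 and their mutant and wild-type libraries were widely separated.

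LOC_Os01g53040 on chromosome 1 had 4.82, 5.26 and 4.17 CPM in ossh1, against 1.25, 1.59 and 1.63 CPM in WT, a log2 fold change of 1.67 (SE 0.19). LOC_Os03g20550 on chromosome 3 had 13.1, 12.8 and 12.6 CPM in ossh1, against 4.53, 4.59 and 5.29 CPM in WT, a log2 fold change of 1.41 (SE 0.11). The ossh1 libraries of LOC_Os03g20550 were nearly level with each other. LOC_Os01g51690 had 18, 35 and 34 counts in ossh1, against 14, 18 and 6 counts in WT, and after scaling its lowest ossh1 library (0.688 CPM) lay close to its highest WT library (0.573 CPM). Its log2 change was 1.45 (SE 0.40, adjusted p = 0.00211, edgeR), and its fitted variation between replicates was the highest among the tested members.

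The remaining 3 rises among the 8 were just past 2-fold. LOC_Os11g29870 had 34.6, 37.3 and 36.9 CPM in ossh1, against 16.5, 15.4 and 16.4 CPM in WT (log2 fold change 1.17, SE 0.07). LOC_Os05g39720 had 19.1, 19.4 and 17.7 CPM in ossh1, against 9.47, 7.74 and 8.86 CPM in WT (1.11, SE 0.09). LOC_Os01g47560 had 41.2, 50.1 and 43.2 CPM in ossh1, against 20.7, 21.3 and 21.2 CPM in WT (1.09, SE 0.07). In each of the 3 genes all ossh1 libraries lay above all WT libraries.

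**Figure D2:**
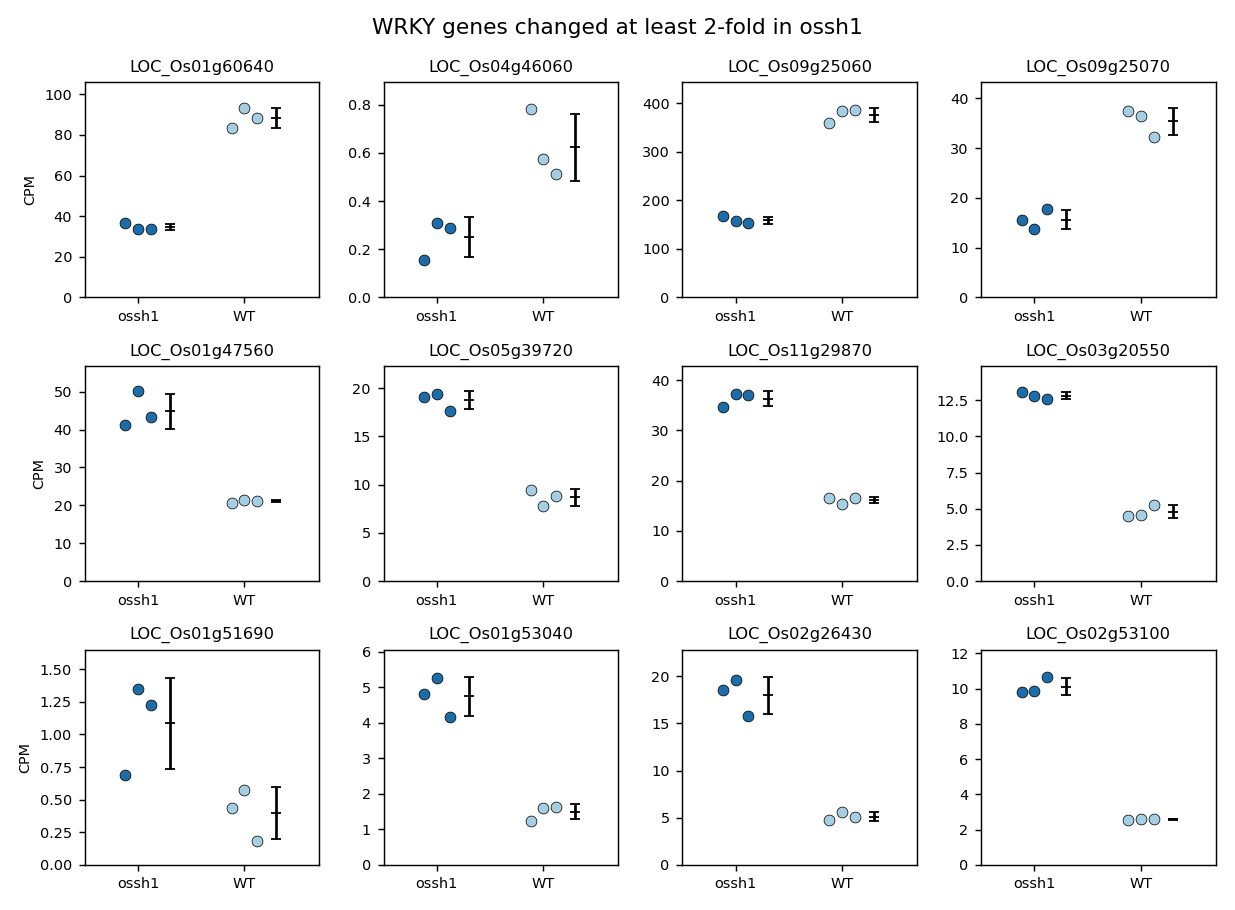
Level of the 12 WRKY genes that were at least 2-fold higher or lower in ossh1, in CPM, 1 point per library, with ossh1 left of WT and bars for mean and SD (n = 3). The first 4 panels show the falls and the other 8 the rises, and in every panel the points of ossh1 and WT do not overlap.

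All other changes past the test in ossh1 were smaller than 2-fold, and those given here had narrow replicate spread. LOC_Os05g09020 had 344, 347 and 341 CPM in ossh1, against 239, 242 and 241 CPM in WT, a log2 change of 0.51 (SE 0.03, adjusted p = 1.54e-18, edgeR). The ossh1 and WT libraries of this gene each spanned a few CPM, so a 1.43-fold difference stood well clear of the spread. LOC_Os02g08440 had 340, 352 and 316 CPM in ossh1, against 447, 449 and 466 CPM in WT, a log2 fold change of -0.43 (SE 0.03). LOC_Os05g27730 had 260, 258 and 227 CPM in ossh1, against 313, 320 and 317 CPM in WT, a log2 fold change of -0.35 (SE 0.04). LOC_Os06g44010 had 29.1, 31.2 and 28.3 CPM in ossh1, against 46.0, 49.0 and 49.5 CPM in WT, a log2 fold change of -0.71 (SE 0.06). Each of these falls held in every library of ossh1 against every library of WT.

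LOC_Os05g25770 did not pass the test in ossh1. It had 800, 819 and 731 CPM in ossh1, against 765, 759 and 772 CPM in WT, a log2 change of 0.03 (SE 0.03, adjusted p = 0.345, edgeR). The ossh1 libraries lay on both sides of the WT libraries. The other 6 members that did not pass had log2 fold changes from -0.15 (LOC_Os01g43650) to 0.07 (LOC_Os04g21950).

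Several calls near the threshold were lost when a single library was left out. LOC_Os08g29660 had 162, 145 and 144 CPM in ossh1, against 140, 142 and 142 CPM in WT, with an adjusted p of 0.0375 (edgeR). Its call was lost when any of WT replicates 1 to 3 (adjusted p = 0.120, 0.0853 and 0.0837) or ossh1 replicate 1 (0.448) was left out. LOC_Os02g47060 (log2 fold change -0.18) lost its call without WT replicate 1 (0.0704), WT replicate 2 (0.0698) or ossh1 replicate 3 (0.149). LOC_Os01g09100 (-0.41) did so without WT replicate 3 (0.213) or ossh1 replicate 2 (0.0604), and LOC_Os07g02060 (-0.35) without WT replicate 3 (0.0706) or ossh1 replicate 1 (0.138). LOC_Os07g48260 (-0.46, adjusted p = 0.0451) had overlapping ossh1 and WT libraries, and lost its call without WT replicate 1 (0.205), WT replicate 3 (0.104), ossh1 replicate 1 (0.113) or ossh1 replicate 3 (0.181).

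The second close pair, on chromosome 3, moved apart. LOC_Os03g55080 had 27.1, 31.2 and 25.7 CPM in ossh1, against 21.7, 22.2 and 20.8 CPM in WT, a log2 change of 0.38 (SE 0.07, adjusted p = 1.72e-05, edgeR). LOC_Os03g55164 had 9.56, 7.57 and 9.67 CPM in ossh1, against 13.3, 14.8 and 14.6 CPM in WT, a log2 change of -0.67 (SE 0.10, adjusted p = 2.31e-07, edgeR). The rise and the fall each left the ossh1 and WT libraries without overlap. The table holds 8 IDs between these genes, so they are near each other but not adjacent.

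The 2 members left untested in ossh1 had very few reads. LOC_Os01g74140 had 2, 2 and 4 counts in ossh1 and 0 in each WT library, and LOC_Os05g40060 had 3, 1 and 4 counts in ossh1, against 5, 6 and 15 counts in WT. The 8 counts of LOC_Os01g74140 over the ossh1 libraries exceeded the limit of 3 counts that a count of 0 over the WT libraries allows, by counting error only and with no test.

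In oscct most of the listed members were lower. Of these 30, 21 were lower in oscct than in CK and 9 were higher, and all 30 passed the edgeR test without overlap between oscct and CK libraries. The table holds rows that differ between its groups, so 99.1% of its 11518 tested IDs passed, 98.2% did so in non-overlapping libraries, and passing says nothing about the family. Of all tested IDs 50.2% were lower, against 70% of the listed members, and 48.9% were higher, against 30%. The median log2 fold change was -0.58 over members and -0.09 over all tested IDs. At least 2-fold lower were 7 members (23.3%, against 12.6% of all IDs), and 5 were higher by that much (16.7%, against 14.4%), together 40% of members against 26.9% of all IDs. Of the 41 members tested in ossh1, 73.2% were listed for oscct, against 47.8% of all IDs tested in ossh1. The other 13 members were not listed, which does not mean that they were unchanged.

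LOC_Os05g27730 had the smallest adjusted p among the members in oscct. It had 291, 280 and 293 CPM of listed counts in oscct, against 594, 597 and 618 in CK, a log2 change of -1.06 (SE 0.03, adjusted p = 6.43e-15, edgeR). LOC_Os02g08440 had 104, 112 and 103 CPM of listed counts in oscct, against 275, 257 and 276 in CK, a log2 change of -1.34 (SE 0.04, adjusted p = 2.58e-14, edgeR). Each gene fell to less than 0.5 times its CK level. LOC_Os02g08440 was listed in 3 rows, and all 3 were lower in oscct, with log2 fold changes of -1.24, -1.68 and -1.74. The row with most reads, at 1238, 1312 and 1206 estimated counts in oscct, against 2877, 2635 and 2901 in CK, carried most of the sum.

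LOC_Os01g14440 had 85.6, 79.2 and 79.6 CPM of listed counts in oscct, against 169, 170 and 173 in CK (log2 fold change -1.07, SE 0.04). LOC_Os01g61080 had 19.1, 17.2 and 18.8 in oscct, against 37.5, 42.5 and 42.5 in CK (-1.15, SE 0.07). LOC_Os09g25060 had 6.26, 6.89 and 4.94 in oscct, against 14.3, 16.6 and 14.9 in CK (-1.34, SE 0.12). The oscct libraries of these 3 genes were all below the CK libraries, and LOC_Os09g25070, the neighbour of the last, was not listed.

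LOC_Os03g20550 was listed in 2 rows that were both lower in oscct. Their sums were 67.2, 55.7 and 76.2 estimated counts in oscct, against 173, 168 and 154 in CK, a log2 fold change of -1.42 (SE 0.12). LOC_Os01g60640 had the largest fall, with 6.85, 17.65 and 9.18 estimated counts in oscct, against 57.69, 40.55 and 50.23 in CK, a log2 change of -2.23 (SE 0.28, adjusted p = 1.39e-06, edgeR). For 25 members the listed rows sum to whole counts in all 6 libraries, but the single row of LOC_Os01g60640 is not whole in any, so it need not hold all reads of this ID. The sums of LOC_Os03g20550, LOC_Os08g29660, LOC_Os02g16540 and LOC_Os08g38990 are likewise not whole in at least 1 library.

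Of the 9 rises in oscct, that of LOC_Os05g49620 was the largest. It had 14.6, 17.1 and 16.6 CPM of listed counts in oscct, against 3.92, 4.43 and 4.05 in CK, a log2 change of 1.96 (SE 0.12, adjusted p = 1.63e-10, edgeR) or 3.88-fold. LOC_Os07g02060 had 20.1, 21.5 and 21.0 in oscct, against 6.80, 7.05 and 7.55 in CK (log2 fold change 1.55, SE 0.09). LOC_Os01g40260 had 8.97, 10.1 and 8.40 in oscct, against 3.92, 4.26 and 4.21 in CK (1.15, SE 0.13). The oscct and CK libraries of these genes were well apart.

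LOC_Os02g47060 had 22.4, 28.2 and 25.2 CPM of listed counts in oscct, against 13.0, 12 and 12.6 in CK, just over 2-fold (log2 fold change 1.01, SE 0.09). LOC_Os05g49100 rose on few reads, with 25, 26 and 30 counts in oscct, against 9, 8 and 5 counts in CK (1.76, SE 0.30). The other 4 rises were LOC_Os04g51560, LOC_Os05g25770, LOC_Os03g55080 and LOC_Os08g38990, with log2 fold changes from 0.18 to 0.53.

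**Figure D3:**
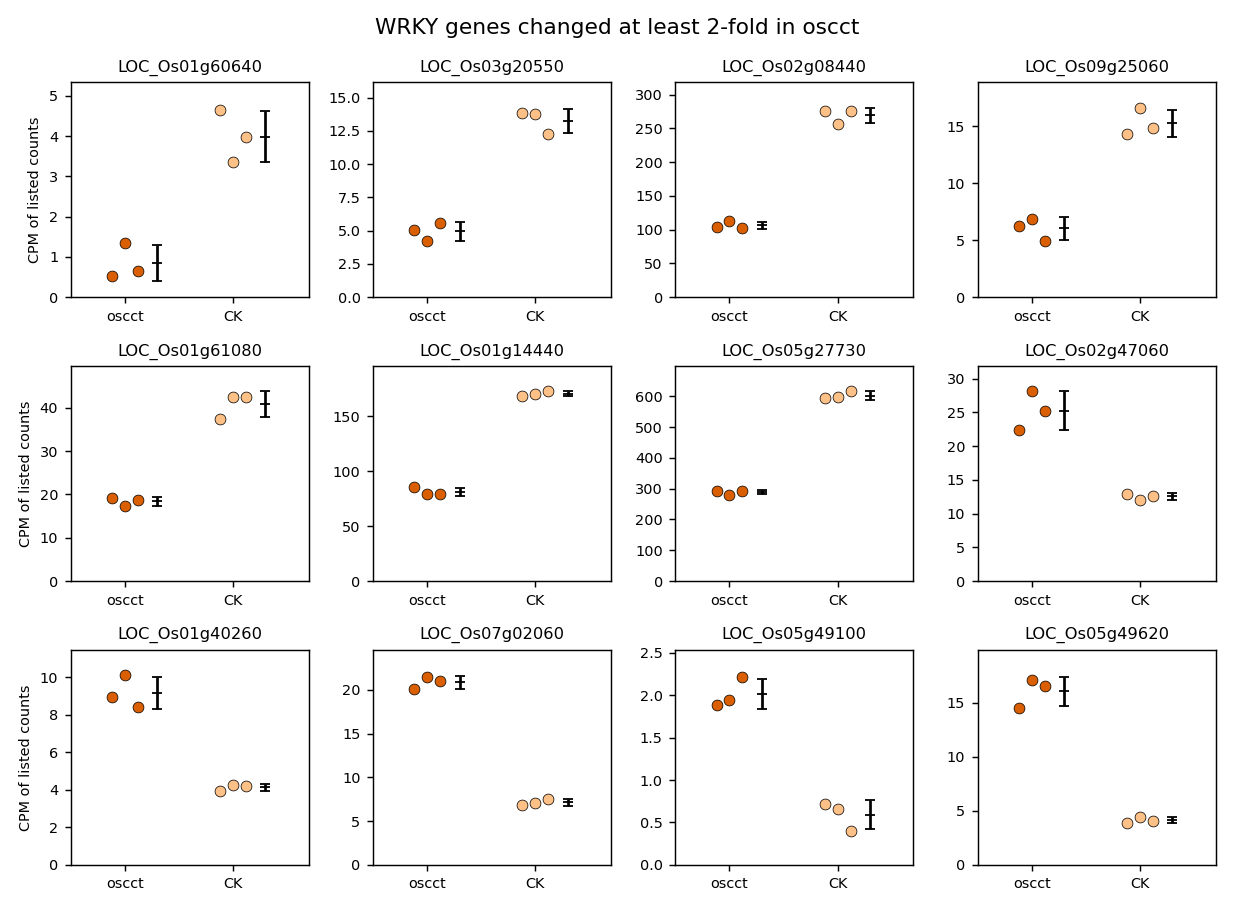
Level of the 12 listed WRKY genes that were at least 2-fold higher or lower in oscct, in CPM of the listed counts, 1 point per library, with oscct left of CK and bars for mean and SD (n = 3). The first 7 panels show falls and the last 5 rises, with no overlap between oscct and CK in any panel.

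Setting the mutants side by side, 25 members passed the test in both, and no control library is shared between the comparisons. Of these, 13 changed in the same direction (52%, against 37.8% of the 7291 IDs past both tests). There were 9 members lower in both mutants (36%, against 19.9% of IDs) and 4 higher in both (16%, against 17.9%). The opposite changes were 9 members with a fall in oscct and a rise in ossh1 (36%, against 32.9%) and 3 with a rise in oscct and a fall in ossh1 (12%, against 29.3%). These 12 opposite changes include LOC_Os08g29660, LOC_Os07g02060 and LOC_Os02g47060, whose ossh1 calls were lost without single libraries. The 13 in the same direction include LOC_Os01g09100, whose ossh1 call was lost in the same way. Whether these shares differ from those of all IDs was not tested.

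The 9 members lower in both were LOC_Os01g60640, LOC_Os09g25060, LOC_Os02g08440, LOC_Os05g27730, LOC_Os06g44010, LOC_Os01g54600, LOC_Os09g16510, LOC_Os01g09100 and LOC_Os02g16540, of which LOC_Os02g16540 no longer passed in oscct with library totals (adjusted p = 0.0752). LOC_Os09g25060 fell to a similar degree, with a log2 fold change of -1.34 in oscct and -1.24 in ossh1. The difference of -0.09 (SE 0.13, adjusted p = 0.511, edgeR) did not pass the test, and it turned to 0.17 when libraries were scaled by their totals and to 0.03 without oscct replicate 3. LOC_Os06g44010 likewise fell by 0.81 in oscct and 0.71 in ossh1 on the log2 scale, with a difference of -0.10 (SE 0.09, adjusted p = 0.281, edgeR) that turned to 0.16 with library totals. The difference was below -0.5, with the deeper fall in oscct, for 4 others besides LOC_Os01g60640: LOC_Os02g08440 (difference -0.91, SE 0.06), LOC_Os05g27730 (-0.71, SE 0.05), LOC_Os09g16510 (-0.67, SE 0.06) and LOC_Os01g09100 (-0.58, SE 0.16), of which the last was lost with library totals (adjusted p = 0.0831).

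The 4 members higher in both were LOC_Os05g49620, LOC_Os05g49100, LOC_Os01g40260 and LOC_Os03g55080. LOC_Os05g49620 rose further in oscct (1.96) than in ossh1 (0.60), a difference of 1.36 (SE 0.14, adjusted p = 1.69e-09, edgeR). For LOC_Os03g55080 the changes of 0.51 in oscct and 0.38 in ossh1 differed by 0.13 (SE 0.14, adjusted p = 0.403, edgeR), a difference that passed the test with library totals (0.39, adjusted p = 0.0112). The larger rise of LOC_Os05g49100 in oscct (difference 0.91, SE 0.35, adjusted p = 0.0213, edgeR) was no longer called without CK replicate 3 (adjusted p = 0.108) or oscct replicate 3 (0.0518).

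Opposite changes gave the widest gaps. LOC_Os03g20550 fell to 4.95 ± 0.709 CPM of listed counts in oscct, against 13.3 ± 0.905 in CK, and rose to 12.8 ± 0.246 CPM in ossh1, against 4.80 ± 0.423 in WT (SD, n = 3 each). The changes differed by -2.84 (SE 0.16, adjusted p = 3.73e-14, edgeR). LOC_Os02g26430 fell to 2.14 ± 0.457 CPM of listed counts in oscct, against 3.78 ± 0.550 in CK, and rose to 18.0 ± 1.97 CPM in ossh1, against 5.12 ± 0.431 in WT, a difference of -2.63 (SE 0.24). LOC_Os01g53040, LOC_Os01g61080 and LOC_Os11g29870 were also lower in oscct and higher in ossh1, with differences of -2.25, -1.59 and -1.55.

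Rises in oscct with falls in ossh1 were seen for LOC_Os07g02060, LOC_Os08g38990 and LOC_Os02g47060. LOC_Os07g02060 rose by 1.55 in oscct and fell by 0.35 in ossh1 on the log2 scale, a difference of 1.90 (SE 0.16, adjusted p = 9.56e-11, edgeR). LOC_Os08g38990 and LOC_Os02g47060 each differed by 1.19. The falls of LOC_Os07g02060 and LOC_Os02g47060 in ossh1 are among the calls that were lost when a single library was left out. In all, 25 of 30 members had changes that differed between the mutants (83.3%, against 80.3% of 11654 IDs). The change was lower in oscct for 16 (53.3% of members, against 39.5% of IDs) and higher for 9 (30%, against 40.9%).

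**Figure D4:**
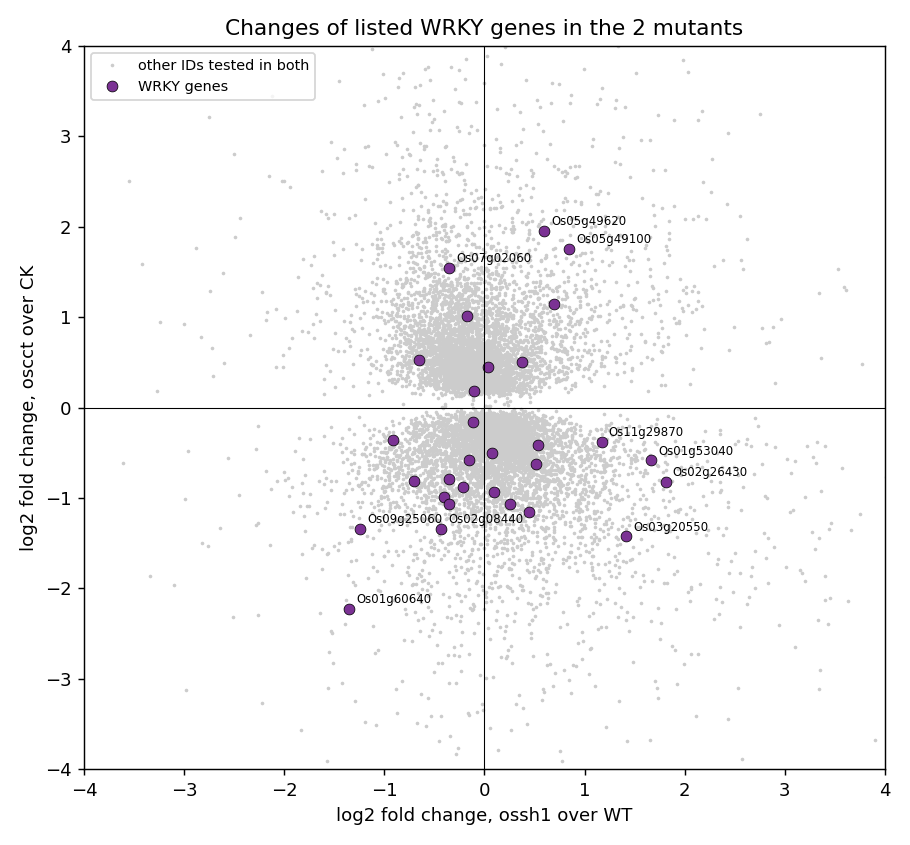
Log2 fold change in oscct over CK (vertical) against that in ossh1 over WT (horizontal) for the 30 listed WRKY genes (purple) and the other IDs tested in both (grey), with axes cut at 4 log2 units, which leaves out 140 of 10734 IDs. The genes LOC_Os01g60640 and LOC_Os09g25060 lie at the lower left and LOC_Os03g20550 at the lower right, the 3 members past both tests with at least 2-fold in both.

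Changes of at least 2-fold in both mutants were found for 3 of the 25 members past both tests (12%, against 9.6% of IDs). LOC_Os01g60640 and LOC_Os09g25060 fell in both, while LOC_Os03g20550 fell in oscct and rose in ossh1. LOC_Os01g60640 and LOC_Os03g20550 are among the IDs with rows that do not add up to whole numbers.

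Summed levels are given for the 30 members listed for oscct and, in the ossh1 table, also for all 43. The 30 listed members, which entered that table because they differ, together had 1558, 1567 and 1567 CPM of listed counts in oscct, against 2421, 2427 and 2478 in CK. The same 30 members had 3374, 3332 and 3104 CPM in ossh1, against 3420, 3496 and 3520 in WT. All 43 members had 3583, 3548 and 3307 CPM in ossh1, against 3615, 3689 and 3705 in WT. By both sums the ossh1 libraries were all below the WT libraries, but the highest of them differed from the lowest WT library by less than the ossh1 libraries differed among themselves. These sums weigh abundant members most and carry no test.

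By edgeR's fitted variation, replicates of most members were close to each other. The median fitted biological coefficient of variation was 4.54% over members in the ossh1 table, against 6.38% over all tested IDs, and 3.89% against 3.57% in the oscct table. It ran from 2.69% (LOC_Os05g09020) to 21.2% (LOC_Os01g51690) in the ossh1 table and from 2.22% (LOC_Os04g51560) to 10.4% (LOC_Os01g53040) in the oscct table. The fit draws on all IDs and leaves out counting error. Observed spread was wider for some members with few reads. The SD was 52.0% of the mean CPM for LOC_Os01g60640 in oscct and 50.1% for LOC_Os01g51690 in WT. In ossh1 replicate 3, only 9 of the 39 members with a mean of at least 1 CPM were above their group mean, with a median deviation of -0.06 on the log2 scale. Without this library 34 members passed the test in ossh1, 19 higher and 15 lower.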

How the data were processed

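The members and lists were chosen with earlier results of these data known. The submitters' processing notes list IRGSP-1.0 as the build and HISAT2, RSEM 1.3.1 and DESeq2 as tools, without saying what each did, and no source used here says whether strand was counted. The ossh1 table holds read counts, per the file headers. The oscct table was deposited under the same header but its decimals mark estimated counts. It covers 13301 rows, of which 10 exact repeats were dropped. Rows of one ID were summed and rounded to whole numbers.

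Mutant and control of each table were compared with edgeR 4.0.16 in R 4.3.3, using filterByExpr, TMM, glmQLFit and glmQLFTest, with no replicate block, over 22669 IDs for ossh1 and 11518 for oscct. The difference of the changes was tested in one model of 12 libraries over 11654 IDs, with scaling from each table. P-values were adjusted by Benjamini-Hochberg over all tested IDs, at 0.05, and measure the spread among 3 pools of plants. Calls in the oscct table are circular, because its rows differ between groups. Sums were called whole within 0.03. Counting limits (3 counts for a count of 0) cover counting error only.

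Named were members with a change of at least 2-fold without overlap (at most 12 per comparison), those past both tests, neighbours within 100 serial numbers and those at 0 in a group. Other members were named after their values were seen, where they did not pass the test, lost their call without a single library or were counted in small numbers. A planned list of named defence genes matched no ID. Alternatives were other scalings, filters and thresholds, DESeq2 1.42.0, limma-voom (limma 3.58.1), the block, single rows and left-out libraries. The fits were tested on simulated data. Figures used matplotlib 3.10.9.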

Additional observations from a re-analysis of the deposited data

Results flagged for a closer look

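A direct test of the difference between the mutants (edgeR, adjusted over all IDs) called 25 of 30 members (83.3%, against 80.3% of 11654 IDs). Of the 25 members past both single tests, 36% fell in oscct and rose in ossh1, against 32.9% of IDs. The reverse held for 12%, against 29.3% of IDs. Of the members called for the difference, 12 passed in opposite directions in oscct and ossh1. For 3 of the 12 the ossh1 call was lost on leaving out single libraries, namely LOC_Os08g29660, LOC_Os07g02060 and LOC_Os02g47060, and that of LOC_Os08g29660 also turned sign with library totals (-0.0028). The log2 change in oscct was below that in ossh1 by the following differences. It was -2.84 for LOC_Os03g20550, -2.63 for LOC_Os02g26430, -2.25 for LOC_Os01g53040, -1.59 for LOC_Os01g61080, -1.55 for LOC_Os11g29870, -1.32 for LOC_Os01g14440, -1.14 for LOC_Os05g09020 and -1.03 for LOC_Os08g29660. It was -0.95 for LOC_Os05g46020, -0.91 for LOC_Os02g08440, -0.88 for LOC_Os01g60640, -0.71 for LOC_Os05g27730, -0.67 for LOC_Os09g16510, -0.58 for LOC_Os04g21950, -0.58 for LOC_Os01g09100 and -0.44 for LOC_Os01g54600. The change in oscct was above that in ossh1 by 0.29 for LOC_Os04g51560, 0.41 for LOC_Os05g25770, 0.45 for LOC_Os01g40260, 0.55 for LOC_Os02g16540, 0.91 for LOC_Os05g49100, 1.19 for LOC_Os02g47060, 1.19 for LOC_Os08g38990, 1.36 for LOC_Os05g49620 and 1.90 for LOC_Os07g02060. All these IDs entered the test only because they were listed for oscct. The call of LOC_Os01g60640 was lost without oscct replicate 1 (edgeR adjusted p = 0.0655) and with library totals (0.0555), and that of LOC_Os05g49100 without CK replicate 3 (0.108) or oscct replicate 3 (0.0518).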

How the results depend on the processing

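The count of members past the test stayed within 1.5 times its value under every alternative run. In ossh1 it was 34 and ran from 28 (adjusted p of 0.01) to 35 (library totals). In oscct it was 30 of 30 and ran from 28 (library totals) to 30. The rows there were listed because they differ, and 99.1% of all tested IDs passed. The steadiness of the oscct count, here and in the settings below, therefore says nothing about the family. With only IDs whose rows add up to whole numbers, a setting chosen after seeing the data, all 25 members kept passed in oscct. For the difference it was 25 of 30 and ran from 23 (adjusted p of 0.01) to 25. With only IDs of 1 row, 22 of 27 members passed for the difference. Leaving out 1 library gave 30 to 34 members in ossh1, 30 in each case in oscct and 24 to 25 for the difference. Deviations from the group mean correlated from -0.05 to 0.03 between same-numbered libraries and from -0.02 to 0.05 between the others. Shifts of a whole library are removed by the scaling, so these values cannot decide whether equal numbers mark pairs. With the replicate block 32 members passed in ossh1, 30 in oscct and 25 for the difference. With library totals as the scaling, the median log2 change over all IDs was -0.11 in ossh1 (-0.01 with TMM), 0.08 in oscct (-0.09) and 0.29 for the difference (0.03). It turned LOC_Os08g29660 in ossh1 to -0.0028, LOC_Os07g39480 in oscct to 0.0078, and the differences of LOC_Os09g25060 to 0.17 and of LOC_Os06g44010 to 0.16. Leaving out 1 library moved the difference of LOC_Os09g25060 from -0.20 to 0.03, and the value without oscct replicate 3 was 0.033. Besides these changes of sign, pairing called members with each alternative gave 31 lost calls in ossh1, 1 in oscct and 7 for the difference. Members without a call in ossh1 were not followed there, so gained calls were not counted, although the total rose to 35 with library totals. For the difference, 1 call was gained among the members followed. The cause of these shifts was not tested. Depth limits the members under 1 CPM, which number 4 in the ossh1 table.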

Other observations

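Of 24 members compared between the wild types of the 2 tables, 12 had mean levels within 2-fold of each other, 5 were at least 2-fold higher in WT and 7 at least 2-fold higher in CK. The tables were scaled separately and the oscct table counts only listed reads, so levels across them are given without a test. These counts are taken around equal CPM, whereas the median log2 ratio over 6567 IDs was -0.61. The shares of all IDs in these classes were not counted. The counts therefore do not show a lean of the family to either wild type. LOC_Os09g25060 had a mean of 376 CPM in WT and 15.2 CPM of listed counts in CK, a ratio of 24.7. LOC_Os05g25770 had 765 CPM in WT and 44.9 in CK, a ratio of 17.0. LOC_Os01g40260 and LOC_Os05g49620 had ratios of 17.9 and 17.8. Over 6567 IDs with whole sums and at least 1 CPM in both wild types, the median log2 ratio of WT to CK was -0.61, and these 4 members lay between percentiles 98.7 and 99.2. At the other end, LOC_Os01g09100 had 4.61 CPM in WT and 38.7 in CK, 8.40 times higher in CK, and LOC_Os05g46020 had 21.7 CPM in WT and 141.7 in CK. The 24 members had a median log2 ratio of 0.18. The part of line, growing place and library preparation in these levels was not tested.

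In oscct, LOC_Os05g25770 had 57.9, 65.6 and 59.8 CPM of listed counts, against 43.5, 46.3 and 44.8 in CK, while it did not pass the test in ossh1. LOC_Os09g25060 had log2 changes of -1.34 in oscct and -1.24 in ossh1.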
